A study of Homo sapiens with 6 samples.

Results

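JMJD1C shRNA95, one of the 2 hairpins of the study directed at the histone demethylase JMJD1C, was compared with control shRNA in Kasumi-1, a human acute myeloid leukemia line of myeloblast type. The comparison covered 14391 genes of the 62016 in the table, namely every gene that the authors' software could test and whose level reached 1 FPKM (fragments per kilobase of transcript, scaled to the mapped fragments of the libraries) in either group. Cells of both groups were infected with virus made from the pLKO hairpin vector and collected on day 4, so the control cells had also been infected and carried a hairpin. Each group held 2 libraries, and the series also has 2 libraries with another JMJD1C hairpin, shRNA63, and a table of AML1-ETO knockdown from other libraries. Kasumi-1 is a single cell line, and the labels leave unsaid whether the libraries within a group are from different cultures. The table gives 1 pooled FPKM value per group and no value per library, so no spread between libraries can be shown. Gene positions are those of hg19. A gene is called higher or lower here where the Cuffdiff q-value in the authors' deposited table is under 0.05. The error given after a log2 fold change is that fold change divided by its test statistic, both from the same table.

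JMJD1C belongs to the KDM3 family of enzymes, which remove methyl groups from lysine 9 of histone H3, a mark of silent chromatin. Kasumi-1 cells carry AML1-ETO, a fusion of the DNA-binding part of RUNX1 with the corepressor-binding protein RUNX1T1, which holds myeloid cells at an immature stage. Immature myeloid cells make their granule proteins in the endoplasmic reticulum (ER), where chaperones and disulfide isomerases fold them, and switch to other granule, lysosomal and phagocyte genes as they mature.

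JMJD1C (ENSG00000171988, chromosome 10, 64926981 to 65225722) was at 29.4 FPKM in the control group and at 25.1 FPKM in the libraries labelled shRNA95, which is 85.3% of control. The authors' deposited table gives JMJD1C a log2 fold change of -0.23, with an error of 0.30 and a Cuffdiff q-value of 0.938. The 95% interval of that log2 fold change, taken from this error and a normal distribution, ran from -0.81 to 0.35. A loss of JMJD1C mRNA with shRNA95 was thus neither detected nor excluded. Of the mRNA under shRNA63, the authors' deposited table gives 30.4 FPKM in the same control libraries and 13.7 FPKM with the hairpin, a Cuffdiff q-value of 0.00214. JMJD1C shares its locus with other genes of the table, 6 in all. The other family members, KDM3A (32.9 and 22.7 FPKM) and KDM3B (24.8 and 23.8 FPKM), were not called with shRNA95. None of the 8 other measured H3K9 demethylases was called, nor was any of the 10 measured H3K9 methyltransferases and HP1 proteins, which write and read the mark. At an unadjusted Cuffdiff p under 0.05, which 13.3% of all measured genes had, 2 of these 8 and 2 of these 10 passed.

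The cells were checked against markers of the line. CD34, the surface antigen of blood progenitors, rose from 146.1 to 249.0 FPKM, and CD33, a myeloid lectin, stood at 19.2 and 22.5 FPKM. KIT, the stem cell factor receptor, was at 237.6 FPKM in control and 166.0 with shRNA95 and was not called. RUNX1T1, whose sequence is part of AML1-ETO, was at 99.4 and 73.3 FPKM. In all, none of the 8 measured genes of AML1-ETO and its transcription factor complex was called, 0 had an unadjusted Cuffdiff p under 0.05, and their median log2 ratio was -0.19. MPO, the myeloperoxidase of primary granules, has no level in the table, where it is marked in both groups as holding too many reads to be tested. Genes of other lineages were mostly below 1 FPKM. Only 2 of 13 erythroid genes, 1 of 8 megakaryocyte genes, 4 of 12 lymphoid genes and 1 of 11 stromal and epithelial genes reached that level. The red-cell genes HBB and HBA1, the platelet gene PF4 and the B-cell gene MS4A1 were listed at 0 in both groups. The lymphoid list summed to 23.5 FPKM in control and 16.5 with shRNA95, and its member NKG7, a cytotoxic granule gene, rose from 0.590 to 3.90 FPKM. NKG7 reached 1 FPKM only with shRNA95. The remaining 3 measured lymphoid genes had negative log2 ratios and were not called.

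Among the 14391 measured genes, 441 were called higher and 285 lower with shRNA95, or 3.06% and 1.98% of them, and 5.04% in either direction. Most genes moved little. The median log2 ratio, computed from FPKM plus 1, was 0.03, and 82.4% of the genes had an absolute ratio under 0.5. Called genes had a median log2 ratio of 0.87 where higher and -0.83 where lower. The ratio lay above 1 for 166 genes called higher and below -1 for 97 called lower. The median error of the authors' log2 fold change was 0.38 in their deposited table. Just inside the level limit was MAGEE1 at 1.00035 FPKM, and just outside was HCAR1 at 0.999739 FPKM.

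The balance of higher and lower calls changed with abundance. Of the 3839 genes whose higher group value lay between 1 and 5 FPKM, 2.63% were called higher and 2.40% lower. Of the 1340 genes between 100 and 500 FPKM, 91 were called higher and 13 lower. Of the 309 genes at 500 FPKM or more, 23 were called higher and 4 lower. The genes called higher took 4.09% of the summed FPKM in the control group and 7.36% in the shRNA95 group. The genes called lower went from 2.001% to 0.704% of it. Ribosomal and mitochondrial RNAs weigh heavily in these shares. The higher genes summed to 51167 FPKM in control and 105658 with shRNA95, of which RNA28S5, a ribosomal RNA, had 6241 and 16483 FPKM. The lower genes summed to 25026 and 10106 FPKM, of which the mitochondrial transfer RNA MT-TM had 11247 and 4269 FPKM. Error fell with abundance, from a median of 0.58 in the lowest class to 0.27 in the highest.

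**Figure D1:**
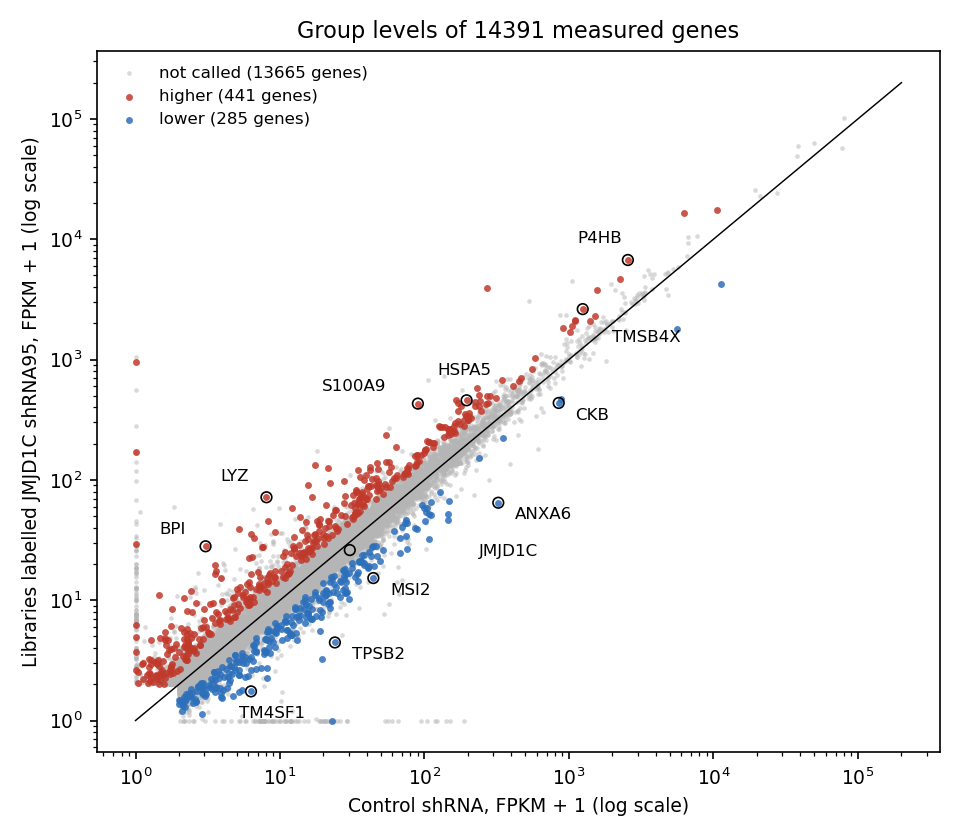
Group levels of the 14391 measured genes, control shRNA on the horizontal axis and the libraries labelled shRNA95 on the vertical axis, both as FPKM plus 1 on a log scale, 1 point per gene; red points are called higher, blue points lower, grey points not called, circles mark named genes, and the line marks equal levels. Above 100 FPKM most called genes lie above the line, and JMJD1C lies close to it.

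Of 24 ER chaperones and disulfide isomerases, all measured, 13 rose with shRNA95 and none fell. Among the 6 of them that share their locus with no other gene of the table, 5 rose. Their median log2 ratio was 0.92 against 0.03 for all measured genes, and 22 of the 24 ratios were positive. The share called higher among all measured genes was 3.06%. HSPA5 (BiP), the main HSP70 chaperone of the ER and a regulator of the unfolded protein response, went from 194.6 to 457.5 FPKM. The authors' deposited table lists this as a log2 change of 1.23 with an error of 0.24. The lectin chaperone CALR, which binds sugar chains on new glycoproteins, went from 2239 to 4713 FPKM, and the disulfide isomerase P4HB from 2555 to 6717 FPKM. These are very abundant mRNAs, and P4HB had the largest gain in FPKM of any protein-coding gene called. Other isomerases rose in similar proportion. PDIA3, which works with CALR, went from 235.8 to 503.9 FPKM, PDIA4 from 125.8 to 276.9 FPKM and PDIA6 from 341.5 to 678.0 FPKM. MANF, a secreted ER stress protein, had the highest ratio of the list and went from 165.0 to 459.3 FPKM. It was accompanied by CRELD2, a related ER stress-inducible protein (27.3 to 72.4 FPKM), and by SDF2L1, which assists BiP cycles (32.4 to 78.0 FPKM). HSP90B1 (GRP94), the ER form of HSP90, rose from 1049 to 1888 FPKM with a Cuffdiff q-value of 0.0341 in the authors' deposited table. The other risers were DNAJB11, PPIB and FKBP2, a co-chaperone and 2 prolyl isomerases. CANX (696.8 and 1076.7 FPKM) and HYOU1 (182.0 and 267.9 FPKM) were higher in value but not called, and TXNDC5 (180.7 and 136.8 FPKM) was lower in value and not called.

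The ER stress response element is a sequence first described in promoters of ER chaperone genes. Promoters are shown for the 6 genes of the list that were called higher and hold the element or a related form. CANX, ERO1B and HYOU1 also hold one of these, were not called and are not shown. The element ERSE was searched as CCAAT followed after 9 bases of any kind by CCACG, and the related ERSE-II as ATTGG, 1 base of any kind and CCACG, on both strands, in RefSeq windows of GRCh38.p14 from 250 bases before to 50 bases after the start. The windows are chr9:125241294-125241593 (minus strand) for HSPA5, chr12:103930160-103930459 (plus) for HSP90B1, chr19:12938359-12938658 (plus) for CALR, chr2:10812736-10813035 (minus) for PDIA6, chr22:49918384-49918683 (plus) for CRELD2 and chr22:21642052-21642351 (plus) for SDF2L1. Each reads 5′ to 3′ on the strand of its gene, and capitals mark the matches to ERSE, or in SDF2L1 to ERSE-II.
HSPA5: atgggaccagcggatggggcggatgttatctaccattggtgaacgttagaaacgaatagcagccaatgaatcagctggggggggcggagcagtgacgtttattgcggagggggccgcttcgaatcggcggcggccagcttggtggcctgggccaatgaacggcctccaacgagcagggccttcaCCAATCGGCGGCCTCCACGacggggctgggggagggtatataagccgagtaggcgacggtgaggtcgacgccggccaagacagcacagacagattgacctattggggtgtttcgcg
HSP90B1: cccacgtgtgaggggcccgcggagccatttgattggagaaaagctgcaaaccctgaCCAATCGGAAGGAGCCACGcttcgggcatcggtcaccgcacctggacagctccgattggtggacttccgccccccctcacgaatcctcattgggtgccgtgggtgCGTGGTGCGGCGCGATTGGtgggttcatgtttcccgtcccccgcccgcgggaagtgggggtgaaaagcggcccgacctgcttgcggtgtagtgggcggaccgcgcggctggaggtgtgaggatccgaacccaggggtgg
CALR: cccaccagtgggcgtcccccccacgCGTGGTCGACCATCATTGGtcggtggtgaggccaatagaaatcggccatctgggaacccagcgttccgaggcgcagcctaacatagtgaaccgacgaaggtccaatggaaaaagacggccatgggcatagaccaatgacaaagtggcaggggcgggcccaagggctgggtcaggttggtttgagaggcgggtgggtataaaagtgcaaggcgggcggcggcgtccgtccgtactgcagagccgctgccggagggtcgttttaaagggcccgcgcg
PDIA6: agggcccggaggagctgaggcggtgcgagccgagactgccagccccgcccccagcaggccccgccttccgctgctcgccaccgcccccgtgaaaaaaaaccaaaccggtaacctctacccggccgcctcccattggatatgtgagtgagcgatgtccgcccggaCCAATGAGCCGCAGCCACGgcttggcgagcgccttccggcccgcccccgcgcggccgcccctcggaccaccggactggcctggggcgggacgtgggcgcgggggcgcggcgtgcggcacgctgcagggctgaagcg
CRELD2: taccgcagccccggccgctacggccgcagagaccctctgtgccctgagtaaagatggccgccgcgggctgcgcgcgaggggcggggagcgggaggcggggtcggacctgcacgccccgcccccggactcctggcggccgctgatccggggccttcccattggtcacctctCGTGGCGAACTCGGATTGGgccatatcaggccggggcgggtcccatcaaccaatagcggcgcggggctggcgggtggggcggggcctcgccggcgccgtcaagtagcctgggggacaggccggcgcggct
SDF2L1: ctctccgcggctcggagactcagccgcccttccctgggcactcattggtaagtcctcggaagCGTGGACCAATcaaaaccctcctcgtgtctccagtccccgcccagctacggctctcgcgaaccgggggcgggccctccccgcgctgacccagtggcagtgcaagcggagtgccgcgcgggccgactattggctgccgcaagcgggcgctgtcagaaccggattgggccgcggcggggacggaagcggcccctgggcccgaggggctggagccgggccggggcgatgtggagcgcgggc
In HSP90B1 the element occurs at 2 places, and in HSPA5 it begins 66 bases before the start.

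Across the 35116 windows searched, 27 held ERSE, or 0.0769%. Of the 34 windows of the 23 ER chaperone genes with a promoter, 9 held it, or 26.5%, and they belong to 7 genes. Of these 7, HSPA5, HSP90B1, CALR, PDIA6 and CRELD2 were called higher, while CANX and ERO1B were not called. The same 5 genes account for all 5 ERSE windows among the 462 windows of genes called higher (1.08%). The genes called lower had 1 such window of 293, that of SYNPO. ERSE-II was in 19 windows of all (0.0541%), among them that of SDF2L1, which was called, and that of HYOU1, which was not. MANF, PDIA4 and P4HB rose, and neither pattern of letters is in their windows. The element was known from these promoters, so its frequency in the list is a property of the list and not of this comparison.

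The listed sensors and regulators of the unfolded protein response, the signalling system that induces ER chaperones, were not called. HSPA5, which also regulates it, was counted with the chaperones and was called higher. These are mRNA levels, and the activity of the response was not measured. Of 13 measured sensors and regulators 0 passed, also at an unadjusted Cuffdiff p under 0.05, with a median log2 ratio of 0.13. XBP1, a transcription factor of the response that also holds ERSE in its promoter, was at 190.8 FPKM in control and 233.9 with shRNA95. DDIT3 (CHOP), its stress effector, was at 9.83 and 17.8 FPKM with an error of 1.43 on the log2 fold change of the authors' deposited table. The sensor ATF6 was at 18.7 and 17.8 FPKM. None of 13 genes for ER-associated degradation, which removes misfolded proteins, was called either, although 11 of their ratios were positive, 3 had an unadjusted Cuffdiff p under 0.05, and the median was 0.35. Of 24 genes for protein entry into the ER and sugar transfer, 2 rose: RPN1, an oligosaccharyltransferase subunit (202.5 to 340.2 FPKM), and SEC11C, a signal peptidase subunit (35.7 to 60.6 FPKM). Of 25 genes for vesicle coats and cargo, SEC24D (16.1 to 34.1 FPKM) and LMAN2 (188.7 to 354.8 FPKM) rose, and COPG1, a COPI coat subunit, fell from 66.6 to 31.8 FPKM. For comparison, 5.04% of all measured genes were called in either direction. The folding machinery outside the ER had few calls. Of 19 cytosolic heat shock proteins only HSPA1A (14.2 to 20.9 FPKM) and HSPA1B (7.12 to 10.6 FPKM) rose, 2 copies of almost the same sequence between which reads can be divided wrongly. None of 8 mitochondrial chaperones and none of 26 proteasome subunits was called, with medians of 0.21 and 0.18. At an unadjusted Cuffdiff p under 0.05 these lists had 0 and 1 genes.

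Sterol synthesis had a positive median as well. Of 20 cholesterol synthesis enzymes, all measured, 4 rose and none fell, with a median log2 ratio of 0.56 and 19 positive ratios. The risers were MSMO1 (34.0 to 65.2 FPKM), HSD17B7 (6.16 to 12.1 FPKM), EBP (143.5 to 233.9 FPKM) and DHCR7 (158.8 to 278.4 FPKM), which all act in the later steps from lanosterol to cholesterol. INSIG1, which retains the sterol sensor SCAP in the ER, rose from 94.3 to 159.5 FPKM. With shRNA63 INSIG1 was lower, at 97.3 FPKM in the same control libraries and 44.0 with the hairpin. SCARB1, a lipoprotein receptor, rose with shRNA95 from 116.2 to 202.3 FPKM, and NPC2, the lysosomal sterol carrier, from 33.9 to 62.6 FPKM. Of 14 genes for fatty acid synthesis and desaturation, 1 was called (7.14%), against 5.04% of all measured genes.

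**Figure D2:**
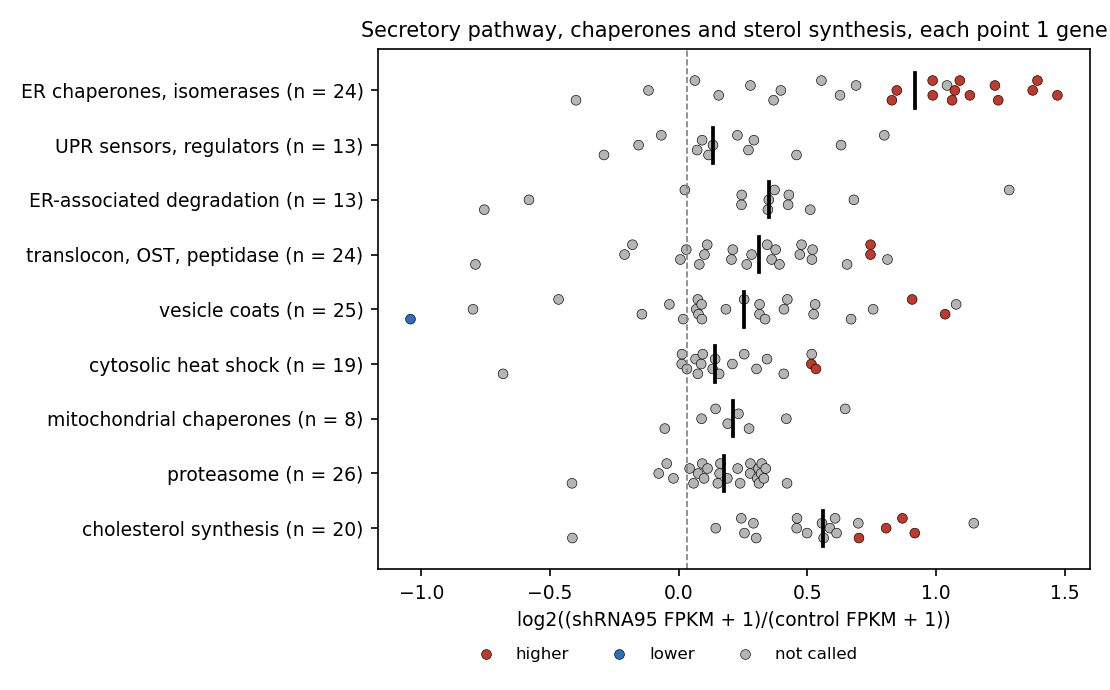
Log2 ratio of shRNA95 to control (FPKM plus 1) on the horizontal axis for the measured genes of 9 lists of the secretory pathway, protein folding, proteasome and cholesterol synthesis, 1 point per gene; red, blue and grey mark higher, lower and not called, thick bars are list medians, and the dashed line is the median of all measured genes. The 13 called ER chaperones lie at the right end of their row, the median of which is 0.92, while proteasome subunits centre at 0.18.

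Granule and phagocyte genes were called in the higher direction. Of 11 measured primary granule genes, which immature myeloid cells express, 6 rose and none fell, with a median log2 ratio of 0.59. Among the 7 of these on a locus of their own, 2 rose. For comparison, 3.06% of all measured genes were called higher. BPI, an antibacterial protein that binds endotoxin, went from 2.05 to 27.1 FPKM, a log2 change of 3.72 with an error of 0.35 by the authors' deposited table. LYZ (lysozyme) went from 7.06 to 70.7 FPKM. An antisense entry on the same locus, RP11-1143G9.4, went from 16.3 to 132.9 FPKM, so the division of reads between them is uncertain. The proteoglycan SRGN, on which granule proteins are packed, went from 53.2 to 234.6 FPKM. The serine proteases and their relatives moved less. AZU1 rose from 1009 to 1706 FPKM, CTSG from 246.1 to 372.6 FPKM and PRSS57 from 447.6 to 664.5 FPKM. PRTN3 (3302 and 4981 FPKM) was not called, and ELANE (neutrophil elastase) stood at 1109 and 1128 FPKM. Of the 19 genes of secondary and tertiary granules, which mark later neutrophil stages, only 3 reached 1 FPKM: MMP25, CEACAM6 and SLPI. All 3 were called higher, though only 1 has a locus of its own, and CEACAM6 reached the limit only with shRNA95, at 0.726 and 1.44 FPKM. MMP25, a membrane metalloproteinase, went from 25.4 to 49.6 FPKM, and the protease inhibitor SLPI from 5.06 to 13.1 FPKM.

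Calcium-binding S100 proteins, several of which are abundant in maturing neutrophils and monocytes, were called higher in 7 of 9 measured cases. Of the 5 on a locus of their own, 4 were called higher. At 5 FPKM or more 5 were called, and 3.06% of all measured genes were called higher. S100A9, a subunit of calprotectin, went from 89.0 to 429.3 FPKM, which the authors' deposited table lists as a log2 change of 2.27 with an error of 0.19. Its partner S100A8 reached 1 FPKM only with shRNA95, and was at 0.0818 FPKM in control and 52.7 with shRNA95. This was the widest difference of the list, and it was not called, with an error of 2.24 and a Cuffdiff q-value of 0.465 in the authors' deposited table. S100A4 (44.9 to 90.2 FPKM), S100A11 (201.9 to 355.1 FPKM) and S100P (42.6 to 100.3 FPKM) each rose. S100P was lower with shRNA63, at 43.9 FPKM in the same controls and 9.73 with that hairpin.

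Monocyte and macrophage genes rose in 5 of 10 measured cases, out of 27 in the list, against 3.06% called higher among all measured genes. MNDA, a nuclear antigen of myeloid cells, went from 2.61 to 16.5 FPKM, and CTSS, a cathepsin of antigen-presenting cells, from 5.64 to 32.02 FPKM. The receptors FCGR1A (2.30 to 8.25 FPKM) and TLR2 (1.24 to 3.10 FPKM), for antibody and bacterial lipopeptide, rose from low levels, and so did AIF1 from a higher one (48.8 to 84.7 FPKM). Of 5 measured subunits of the phagocyte NADPH oxidase, which makes superoxide, 3 rose, among them CYBA (231.2 to 580.5 FPKM) and RAC2 (35.5 to 71.6 FPKM). Only 1 of the 5 has a locus of its own, and it rose. Eosinophil granule ribonucleases also rose, RNASE2 from 21.2 to 94.0 FPKM and RNASE3 from 0.249 to 1.8004 FPKM. The eosinophil genes PRG2 (1.60 and 11.99 FPKM) and CLC (0.129 and 2.14 FPKM) were not called. Of the 5 measured eosinophil genes, only RNASE2 and PRG2 reached 1 FPKM in control. The rest, RNASE3 and CLC among them, were kept only through shRNA95 and could enter only as higher. Among eosinophil genes at 5 FPKM or more 1 was called.

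Mast cell genes went the other way. The list holds 14 genes, of which FCER1A, which encodes part of the mast cell receptor for IgE, was listed at 0 in both groups and the protease CPA3 was at 0.0292 and 0.132 FPKM. Of the 6 measured mast cell and basophil genes, 5 fell and none rose, against 1.98% called lower among all measured genes. The median log2 ratio of the list was -1.11. The median was -0.63 among genes at 5 FPKM or more, and 3 of the calls were kept at a q-value limit of 0.01. The tryptases, proteases of mast cell granules, fell from 22.99 to 3.46 FPKM for TPSB2, from 18.5 to 2.22 FPKM for TPSD1 and from 4.22 to 0.729 FPKM for TPSAB1. These 3 are near-identical neighbours, so the division of reads among them is uncertain. GATA2, a transcription factor of progenitors and mast cells, fell from 30.3 to 19.3 FPKM and SLC45A3 from 21.97 to 14.04 FPKM.

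Among 14 measured blood transcription factors, 3 rose and 2 fell, with a median log2 ratio of -0.24. Neither fall was called at a q-value limit of 0.01 or with genes on a shared locus left out. For comparison, 3.06% of all measured genes were called higher and 1.98% lower. SPI1 (PU.1), which drives monocyte and granulocyte genes, went from 40.8 to 126.3 FPKM, a log2 change of 1.63 with an error of 0.26 by the authors' deposited table. CEBPE, which directs late granulocyte maturation, rose from 35.7 to 78.2 FPKM, and CEBPD from 1.30 to 3.41 FPKM. Besides GATA2, ERG, a progenitor factor, fell from 71.7 to 43.1 FPKM. Short letter patterns for such factors occurred in many promoters, in 2.59% of all windows for PU.1, 12.4% for C/EBP and 13.1% for RUNX. The PU.1 pattern GAGGAAGT was in 2.68% of the windows of measured genes, 4.98% of those of genes called higher and 4.78% of those called lower. The C/EBP pattern TTGNGNAA was in 9.06%, 10.6% and 10.2% of them. The RUNX pattern TGTGGT was in 10.1%, 12.1% and 5.80% of them. These are matches of letters only, on both strands.

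Lysosomal genes rose in 10 of 30 measured cases, with none lower and a median log2 ratio of 0.48. Among the 17 on a locus of their own, 6 rose. The share called higher among all measured genes was 3.06%. LAPTM5, which sits in the lysosomal membrane of blood cells, went from 4.23 to 38.2 FPKM, the steepest rise of the list. The proteases CTSZ (127.1 to 272.1 FPKM), CTSA (55.7 to 114.6 FPKM) and CTSL1 (4.68 to 10.8 FPKM) rose, and so did the membrane proteins LAMP1 (186.0 to 311.1 FPKM), LAMP2 (73.0 to 113.7 FPKM) and CD63 (266.9 to 422.1 FPKM). CST7, an inhibitor of cathepsins in blood cells, went from 0.462 to 1.82 FPKM and reached 1 FPKM only with shRNA95.

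Actin cytoskeleton genes rose in 8 of 24 cases, all measured, with 23 positive ratios and a median of 0.66. Among the 7 on a locus of their own, 4 rose. Over all measured genes 3.06% were called higher. TMSB4X, which binds actin monomers, went from 1244 to 2624 FPKM, and the bundling protein LCP1 from 62.8 to 187.8 FPKM. SH3BGRL3 (33.4 to 120.8 FPKM), TAGLN2 (138.4 to 275.1 FPKM) and TMSB10 (409.5 to 596.3 FPKM) rose too. VIM (vimentin) rose from a low level, 0.386 to 1.40 FPKM, and reached 1 FPKM only with shRNA95. Annexins, which bind membranes in the presence of calcium, changed in both directions. ANXA1, an anti-inflammatory protein of mature neutrophils, went from 0.451 to 10.0 FPKM, ANXA3 from 0.796 to 7.42 FPKM and ANXA5 from 34.7 to 104.9 FPKM. Both ANXA1 and ANXA3 reached 1 FPKM only with shRNA95. ANXA6 fell from 323.1 to 63.6 FPKM, which the authors' deposited table lists as a log2 change of -2.35 with an error of 0.31.

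**Figure D3:**
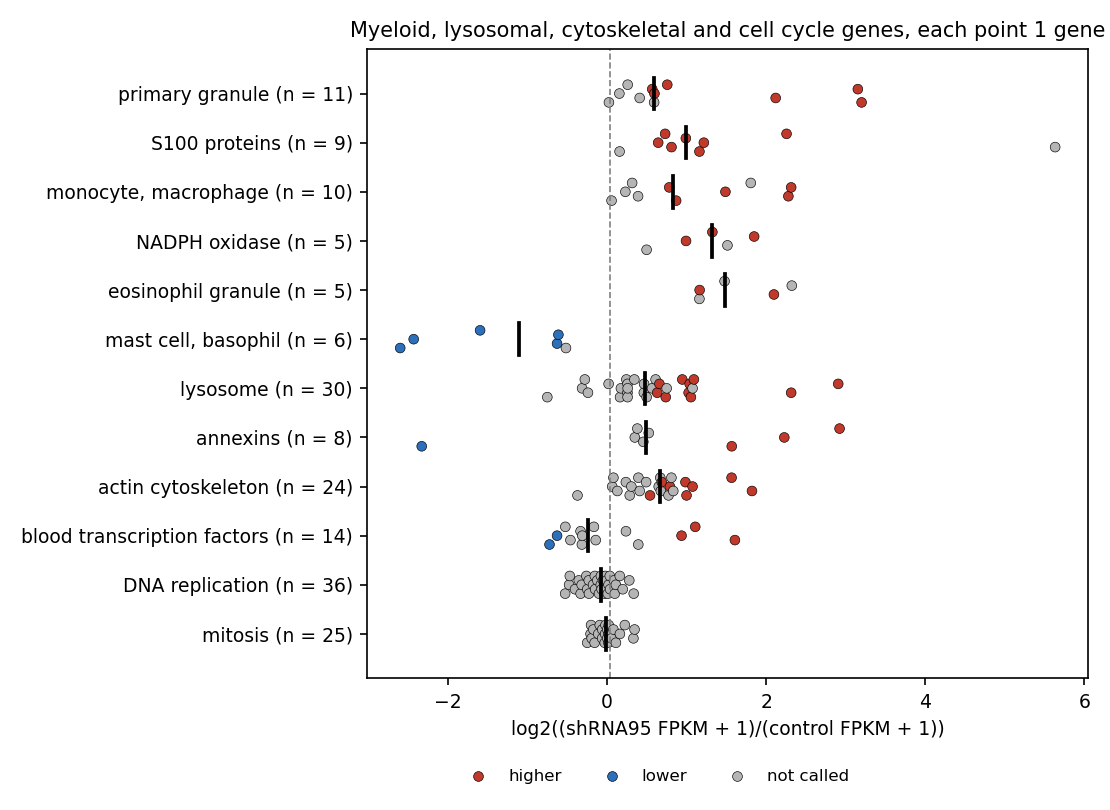
Log2 ratio of shRNA95 to control (FPKM plus 1) on the horizontal axis for the measured genes of 12 lists, 1 point per gene; red, blue and grey mark higher, lower and not called, thick bars are list medians, and the dashed line is the median of all measured genes. The mast cell and basophil row lies left of the line, the S100 row lies right of it with S100A8 as the uncalled point far to the right, and the 36 DNA replication genes sit close to 0.

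Surface and signalling genes included some of the steepest changes. PTPRC (CD45), the phosphatase found on blood cells, went from 7.26 to 44.7 FPKM. ANPEP (CD13), a myeloid peptidase, rose from 57.9 to 127.9 FPKM. CXCR4, the chemokine receptor that holds progenitors in bone marrow, went from 2.57 to 18.7 FPKM, and SELPLG, the ligand of P-selectin, from 0.290 to 1.98 FPKM. SELPLG reached 1 FPKM only with shRNA95. C3AR1, a complement receptor, was at 14.5 and 89.9 FPKM and was called, but its locus in the table holds 19 genes. Of the chemokines, IL8 rose from 1.16 to 9.37 FPKM and CCL5 from 30.1 to 61.0 FPKM, while CXCL2 fell from 1.94 to 0.903 FPKM. KLF2, a factor of quiescence and adhesion, rose from 6.52 to 26.6 FPKM. Of 22 measured interferon-stimulated genes 2 rose, one of them ISG15 (8.28 to 14.5 FPKM). That is 9.09% of the list, while 3.06% of all measured genes were called higher.

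DUSP6, a phosphatase that feeds back on ERK signalling, fell from 74.9 to 25.9 FPKM, and the feedback inhibitor SPRED1 from 5.86 to 1.67 FPKM. They were the 2 called of 9 measured genes of this kind. The share of all measured genes called in either direction was 5.04%. BCL2L1, which encodes the survival protein BCL-XL, fell from 27.6 to 10.5 FPKM. Of the 13 measured BCL2 family genes, BBC3 (1.22 to 2.16 FPKM) and PMAIP1 (23.9 to 36.4 FPKM), which promote cell death, rose, and neither was called at a q-value limit of 0.01. Of 14 measured CDK inhibitors, D cyclins and their kinases, CDKN1C fell from 3.44 to 1.04 FPKM and CDKN2D rose from 1.29 to 2.20 FPKM. HPRT1, the purine salvage enzyme often used as a reference gene, fell from 87.9 to 37.8 FPKM. FTL, the ferritin light chain that stores iron, rose from 1107 to 2123 FPKM.

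The lists of DNA replication, mitosis, ribosome and nuclear respiratory chain genes had no calls. Of all measured genes 5.04% were called, and 13.3% had an unadjusted Cuffdiff p under 0.05. None of 36 DNA replication genes and none of 25 mitosis genes passed, with median log2 ratios of -0.07 and -0.02. None of 24 ribosomal protein genes, 20 ribosome biogenesis genes or 29 nuclear respiratory chain genes passed. Their medians were 0.08, 0.10 and 0.25. At an unadjusted Cuffdiff p under 0.05 there were 3 replication genes, 0 mitosis genes, 0 ribosomal protein genes, 1 ribosome biogenesis gene and 6 respiratory chain genes. MYC was at 362.8 FPKM in control and 335.4 with shRNA95. Of 19 amino acid synthesis genes 1 was called, ASS1, which joins citrulline to aspartate and fell from 14.7 to 6.87 FPKM. Of 12 measured genes of the ATF4 stress pathway, ATF3 was called and rose from 4.99 to 9.10 FPKM, a call not made at a q-value limit of 0.01. In that list 6 of 12 genes had an unadjusted Cuffdiff p under 0.05.

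Several of the steepest changes had other values with shRNA63. Both comparisons use the same 2 control libraries, and each table scales its FPKM on its own, so the values are given side by side and their difference was not tested. ANXA6 was at 333.4 FPKM in control and 332.2 with shRNA63. MSI2, an RNA-binding protein of blood stem cells, fell with shRNA95 from 43.3 to 14.3 FPKM and was at 44.6 and 46.6 FPKM for shRNA63. Its Cuffdiff q-value with shRNA95 was 0.0244 in the authors' deposited table, and its locus holds 5 genes. TMEM66, a regulator of calcium entry, fell from 144.8 to 45.1 FPKM and was at 149.4 and 170.5 FPKM for shRNA63. MYCN fell from 12.1 to 3.70 FPKM and was at 12.5 and 13.4 FPKM for shRNA63. Each of these 4 genes was called lower with shRNA95 and not called with shRNA63, where 2.49% of the 14475 measured genes were called higher and 3.25% lower. TM4SF1, a membrane protein of the tetraspanin-like kind, was called in both tables in opposite directions, from 5.30 to 0.747 FPKM with shRNA95 and from 5.47 to 11.8 FPKM with shRNA63. Among genes that rose, SRGN was at 54.9 and 57.5 FPKM for shRNA63 and TMSB4X at 1283 and 1288 FPKM. HSPA5 was at 200.8 and 310.0 FPKM for shRNA63 and was called there, whereas MANF was at 170.3 and 195.5 FPKM and CALR at 2310 and 3196 FPKM without a call. Other genes had close values under both hairpins. LYZ rose to 59.0 FPKM, MNDA to 14.4 FPKM and CTSS to 27.6 FPKM with shRNA63, and TPSB2 fell to 2.69 FPKM, TPSD1 to 2.22 FPKM, DUSP6 to 25.1 FPKM and CKB, a creatine kinase, from 874.5 to 413.1 FPKM (848.0 to 434.7 FPKM with shRNA95). JMJD1C itself was called lower with shRNA63 alone, as given above.

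**Figure D4:**
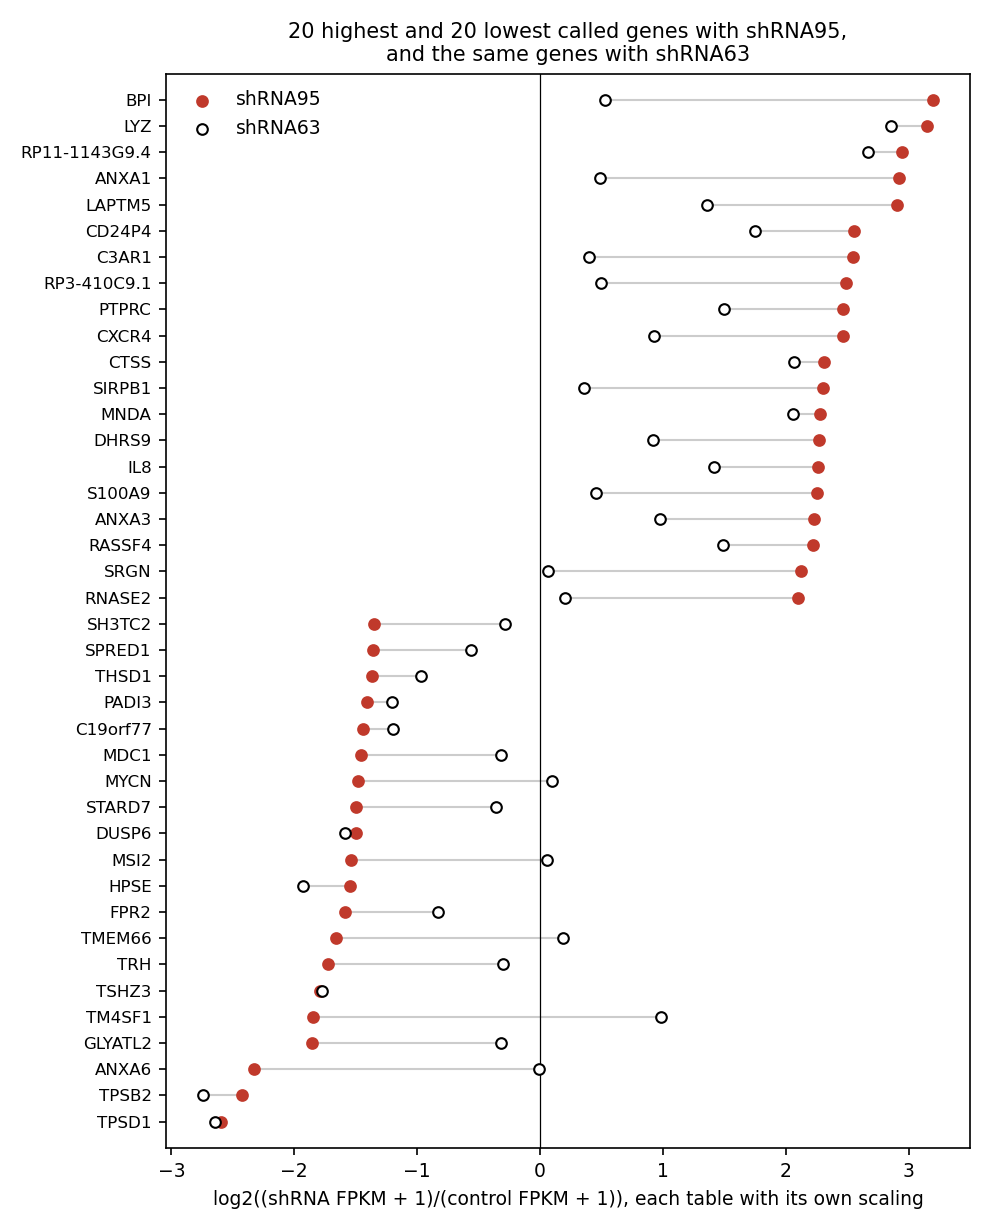
Log2 ratio of hairpin to control (FPKM plus 1) on the horizontal axis for the 20 genes with the highest and the 20 with the lowest ratio among those called with shRNA95 at 5 FPKM or more, filled points for shRNA95 and open points for shRNA63, against the same control libraries. The members of each pair lie close together for LYZ, TPSD1, TSHZ3 and DUSP6 and far apart for BPI, ANXA6, TM4SF1 and SRGN; the shRNA95 points were chosen for their distance from 0 and the shRNA63 points were not.

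The deposited AML1-ETO table compares knockdown of the fusion with a control in libraries of a previously published series, with 1 library per group, so it has no replicate check. It shares no control with the shRNA95 comparison. Both tables tested 13838 of the measured genes, and the authors' deposited table calls 34 of them higher (0.246%) and 35 lower (0.253%) after AML1-ETO knockdown. Of the 34, 25 genes (73.5%) were also called higher with shRNA95, where they make up 5.77% of the 433 higher calls that could be compared. Of the 35, 29 genes (82.9%) were also called lower, or 10.2% of the 285 lower calls. One gene was called in opposite directions: CD34 rose with shRNA95 and had a log2 fold change of -2.15 in the authors' deposited table of AML1-ETO knockdown. The genes higher in both included BPI, ANXA1, LAPTM5, RNASE2, CEBPE and SPI1. Those lower in both included MYCN, TM4SF1, TSHZ3, HPSE (heparanase), PADI3, GAD1 and FLT1 (a receptor of vascular growth factors). S100A8, PRG2 and PRG3 were called higher in the authors' deposited table of AML1-ETO knockdown, at log2 fold changes of 4.25, 6.21 and 5.27. With shRNA95 none of them was called, and S100A8 and PRG2 were higher in value there, as given above.

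Most genes called with shRNA95 were not called in the AML1-ETO table, yet their fold changes there were not centred on 0. The median log2 fold change after AML1-ETO knockdown in the authors' deposited table was 0.64 for genes called higher with shRNA95, and 350 of the 433 were positive. It was -1.11 for genes called lower, 260 of 285 of them negative. For the 13120 genes not called with shRNA95 it was -0.06, and 44.2% were positive. ANXA6, MSI2 and TMEM66, low with shRNA95, had log2 fold changes of -0.24, -0.58 and -0.33 in the authors' deposited table of AML1-ETO knockdown, and MYCN had -3.49.

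**Figure D5:**
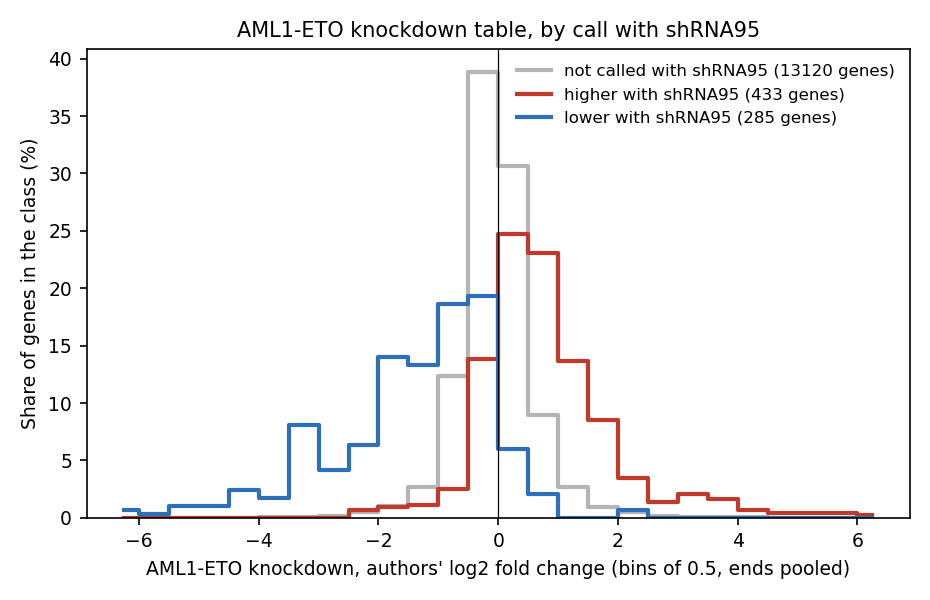
Share of genes in percent on the vertical axis against the authors' log2 fold change after AML1-ETO knockdown on the horizontal axis, in bins of 0.5, for genes called higher, lower or not called with shRNA95. The red curve of 433 higher genes lies right of the grey curve, with a median of 0.64, and the blue curve of 285 lower genes lies left of it, with a median of -1.11.

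RNAs other than mRNA also differed. RNA28S5, annotated as part of the large ribosomal RNA, rose from 6241 to 16483 FPKM and RNA5-8SP6, a copy of a small ribosomal RNA, from 269.1 to 3923 FPKM. Mitochondrial ribosomal RNA rose as well, listed as J01415.23, from 1560 to 3797 FPKM. Of the 22 measured mitochondrial transfer RNAs, 2 were called lower and 1 higher. These falls were the largest in FPKM among called genes, J01415.6 (MT-TM) from 11247 to 4269 FPKM and J01415.13 (MT-TD) from 5605 to 1805 FPKM. J01415.12 (MT-TS1) had a larger difference, at 77334 FPKM in control and 57366 with shRNA95, and was not called. Polyadenylated mRNA preparations remove most ribosomal RNA, and whether they were used here is not stated. Of the 13 mitochondrially encoded protein genes 4 rose, none of them at a q-value limit of 0.01. Whether the difference in these RNAs had a part in the other results was not tested. Protein-coding genes alone gave 381 higher and 255 lower of 10948, with a median log2 ratio of 0.03. NEAT1, a nuclear long noncoding RNA, rose from 17.7 to 42.0 FPKM, and MALAT1 was at 18.8 and 23.5 FPKM without a call.

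Some called genes lay beside others called in the same direction. With at most 250 kb between neighbouring loci, 15 groups of at least 3 genes called higher and 3 groups of genes called lower were found. The 15 include the mitochondrial genome, with 7 of 36 measured genes called higher and 2 lower, and 14 remain without it. Of all measured genes 3.06% were called higher and 1.98% lower, and the number of groups expected from these shares was not tested. The groups named here are dense ones, while AIF1, HSPA1A and HSPA1B on chromosome 6 were 3 of 25 measured genes. On chromosome 1, from 153330330 to 153522612, S100A9, S100A6 and S100A4 were called higher, 3 of the 4 measured genes there. On the same chromosome, from 207494853 to 208084747, the complement regulators CD55 (33.3 to 78.5 FPKM) and CR1 (3.19 to 7.20 FPKM) rose beside CD34. On chromosome 16, from 1203241 to 1308532, the tryptase genes and the calcium channel gene CACNA1H (1.10 to 0.203 FPKM) fell, 4 of 5 measured genes.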

How the data were processed

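RNA sequencing libraries of Kasumi-1 cells, 2 per group, were aligned with TopHat2 2.0.8b and compared with Cuffdiff 2.1.1 on hg19, per the submitters' processing notes. Per the file headers, each table the authors deposited gives 1 FPKM value per group, a log2 fold change, a test statistic (a score), a p-value and a q-value. Depth, strand and RNA selection are not given in the sources used here, so counting error cannot be computed. No value per library is given, so p-values and q-values are the authors' own. If the 2 libraries of a group were not separate cultures, these measure only the spread between samples that may be technical.

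Genes with status OK and at least 1 FPKM in either group were kept. A gene under that limit in control was kept only through its shRNA95 value, so it could enter only as higher. The reverse holds for a gene under the limit with shRNA95. Own ratios are log2((shRNA95 + 1)/(control + 1)), which understates changes of low genes. Called means status OK and q under 0.05. Of the genes kept, 69.6% share their locus in the table with another gene, which makes the division of reads between them uncertain. Of the deposited AML1-ETO table only the fold changes and q-values were used, and its 2 FPKM columns, which belong to libraries of another series, were not. Members of 60 gene lists and the comparison itself were chosen with earlier results of these data known. Named genes are JMJD1C, list genes, the 20 highest and 20 lowest called genes by ratio (at least 5 FPKM, loci of at least 300 bp), the 10 largest rises and 10 largest falls in FPKM, and members of groups of neighbouring called genes. The other genes named were chosen after their values were seen. Gene types came from GENCODE 29 by Ensembl ID. Promoters were matched by symbol to RefSeq windows of GRCh38.p14, for 9550 of the 14391 genes, and no coordinate was converted to hg19. Counting and calling were tested on simulated data. Python 3.11.15, pandas 2.3.3, numpy 2.4.6, scipy 1.17.1 and matplotlib 3.10.9 were used. Alternatives were other q thresholds, FPKM minimums, pseudocounts and gene filters.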

Additional observations from a re-analysis of the deposited data

How the results depend on the processing

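With a q-value limit of 0.01 in place of 0.05, 281 genes were called higher and 189 lower with shRNA95, against 441 and 285. With genes on a shared locus left out, 242 were called higher and 143 lower. The groups of neighbouring called genes went from 18 to 9 with at most 100 kb between neighbours. The medians of 2 lists, both near 0 or over few genes, changed sign: the BCL2 family from 0.01 to -0.05 at 5 FPKM or more and to -0.03 after subtraction of the median of all genes, and the erythroid list from -0.17 to 0.15 at 5 FPKM or more. With a pseudocount of 0.1 FPKM the mast cell median moved to -1.52 and the eosinophil median from 1.48 to 2.83. Without an FPKM minimum the calls were 466 and 327, at 5 FPKM or more 340 and 193, without loci under 300 bp 431 and 282, and with at least 1 FPKM in control, an alternative chosen after seeing the data, 377 and 285. Under the same added limit, the share of AML1-ETO calls found with shRNA95 was 77.8% (14 of 18) for higher and 82.9% for lower genes; without an FPKM minimum, also added, it was 68.4% and 83.3%, and over every gene called after AML1-ETO knockdown it was 60.5% (26 of 43) and 78.9% (30 of 38). The log2 ratio of JMJD1C ran from -0.25 to -0.22. All 57 named genes whose ratio was recomputed kept their sign with a pseudocount of 0.1 FPKM and after subtraction of the median of all genes. Of the 51 counts of calls per list that could be compared, 25 moved by over 1.5 times when genes on a shared locus were left out and 17 at a q-value limit of 0.01. No paired analysis was possible because the tables give 1 value per group, and leaving out each replicate could not be run for the same reason. The files give no depth. In the authors' deposited table the commonest log2 fold change among genes too low to be tested was 0.50, in 200 genes, which gives the shRNA95 group a relative depth of 0.707 if these genes held equal reads. The median error on the authors' log2 fold changes was 0.38 as computed here from the test statistic, and 0.30 when scaled to the deposited p-values. The errors and the interval given here are therefore, in the median, wider than the deposited p-values imply. Errors of either size limit what a gene can show. The median ratio of all genes was 0.0354 with the pseudocount of 0.1 FPKM.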

Other observations

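Several classes of small noncoding RNA had a positive median log2 ratio and few calls, and the 55 measured microRNA genes had a median of -0.12 with 0 calls, 1 of them having an unadjusted Cuffdiff p under 0.05. The 111 measured small nucleolar RNAs, which guide modification of ribosomal RNA, had a median of 0.55 and 0 calls with the Cuffdiff q-value, and 4 had an unadjusted Cuffdiff p under 0.05. The 72 measured small nuclear RNAs, parts of the spliceosome, had a median of 0.67, and 2 were called higher. The 10 measured Cajal body RNAs had a median of 0.76. These loci are short, and the commonest log2 fold change among genes too low to be tested was 0.50 by the authors' deposited table, near these medians. The part of depth in them was not tested. RN7SK, which restrains a kinase of transcription elongation, rose from 8.21 to 35.9 FPKM.

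TRGJP1, a joining segment of the T-cell receptor gamma locus only 60 bp long, was listed at 0 FPKM in control and at 953.1 FPKM with shRNA95, and was called. FPKM divides by length, so values of such short loci are very large. Of the genes called, 8 were listed at 0 in a group.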
